A study of Mus musculus with 1600 samples.

Results

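A set of 10 genes of iron storage and antioxidant defence was followed through single cells of mouse glomeruli: Fth1, Ftl1, Prdx1, Gpx1, Sod1, Sod2, Cat, Txn1, Hmox1 and Nqo1. They were chosen by name among the 45792 gene rows measured, and all 10 had reads. The diabetes group received streptozotocin, a toxin of pancreatic beta cells that lowers insulin, at a daily 50 µg per g of body weight for 5 days from the age of 8 weeks, and the control group received citrate buffer. All mice, controls included, lacked endothelial nitric oxide synthase (Nos3-/-, C57BL/6 background), so no group with intact Nos3 is described. Glomeruli were taken at 10 weeks, 3 mice were pooled for each condition and experiment, and the 2 experiments gave diabetes replicates 1 and 2 and control replicates 1 and 2. Cells were trapped on the Fluidigm C1 microfluidic array, imaged in place, and the RNA of every well was sequenced. How many cells the image of a well showed is part of the labels.

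Ferritin is a shell of heavy (Fth1) and light (Ftl1) subunits that stores iron; the heavy subunit oxidises iron as it enters, and the light subunit helps the mineral core to form. Both messengers carry an iron-responsive element, a stem-loop in the 5′ untranslated region to which iron regulatory proteins bind when iron is scarce and so hold back translation. Haem oxygenase 1 (Hmox1) breaks down haem and frees its iron, and macrophages that clear red cells are known for high ferritin. Superoxide dismutases turn superoxide into hydrogen peroxide, in the cytosol (Sod1) and in mitochondria (Sod2). Peroxide is then removed by catalase (Cat), glutathione peroxidase 1 (Gpx1) and peroxiredoxin 1 (Prdx1), the last of which is recharged by thioredoxin 1 (Txn1). Nqo1 reduces quinones. Several of these genes are known targets of the transcription factor NRF2, which binds antioxidant response elements.

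The iron-responsive elements of the ferritin genes are shown because they are the sequence that the heavy and light chain messengers share. Each is read from GENCODE M21 (GRCm38) in the sense of the transcript, and the capitals mark the C bulge and the CAGTG loop with the base after it. The Fth1 element lies in exon 1 of ENSMUST00000025563.7 at chr19:9982730-9982759 on the plus strand, and the Ftl1 element in exon 1 of ENSMUST00000094434.12 at chr7:45459780-45459809 on the minus strand.
Fth1: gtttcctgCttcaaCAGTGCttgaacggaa
Ftl1: gtgtcttgCttcaaCAGTGTttgaacggaa
The loop pattern of the iron-responsive element (the capitals above with 5 bases of any kind between the C and CAGTG and any base at the end), sought on the transcript's own strand, occurred in the 5′ untranslated region of 2250 of 21758 genes (10.3%) and of 2 of the 10 members. These were the ferritin genes.

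A core of the antioxidant response element, TGACNNNGC on either strand, was sought in the 300 bases around each gene's start in RefSeq (GRCm38.p6, 250 bases before and 50 after). It occurred in a window of 3781 of 27025 genes (13.99%) and of 2 of the 9 members with a window, Prdx1 and Sod1; Hmox1 had no window and Fth1 had 2. Both matches lie on the strand opposite to the gene and are shown on the gene's strand with the match in capitals. The Prdx1 match begins 133 bases before the start, within the printed bases chr4:116685456-116685484, and the Sod1 match begins 56 bases before the start, within the printed bases chr16:90220696-90220724.
Prdx1: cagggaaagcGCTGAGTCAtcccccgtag
Sod1: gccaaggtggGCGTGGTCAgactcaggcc
A match describes these letters only. That no match was found in the windows of the other 7 members says nothing of NRF2 at those genes.

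Of 833 wells with 1 cell imaged, 639 were used: 128 and 188 of diabetes replicates 1 and 2, and 120 and 203 of control replicates 1 and 2. Their median depth was 43577 and 176715 reads in diabetes replicates 1 and 2 and 32222 and 219072 in control replicates 1 and 2, so experiment 2 was deeper in both conditions. Clusters were named from marker genes into immune-like, mesangial-like, smooth muscle or renin cell-like, podocyte-like, tubular-like and endothelial-like wells, and a cluster of 41 wells that mixed podocyte and fibroblast markers stayed unnamed. The clusters were built without the 10 members and 71 related genes, so levels by class are not set by the clustering of these genes. The libraries stand apart in one way that the labels do not give. The design text calls the mice sex-matched, yet in endothelial-like wells Xist, the RNA of the inactive X chromosome, had 0.909 and 0.0911 CPM (reads per 1000000 gene reads) in the diabetes pools against 420 and 313 in the control pools. The summed Y-linked genes Ddx3y, Eif2s3y, Kdm5d and Uty had 178 and 163 CPM in the diabetes pools against 0.189 and 0.823 in the control pools. This split and the condition cannot be told apart in any comparison of diabetes with control.

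Fth1 (ENSMUSG00000024661.6, chr19:9980598-9985098, plus strand, GRCm38) was, among the named classes, highest in immune-like wells, followed by mesangial-like wells, and low in endothelial-like wells. The 9 wells of the unnamed cluster in diabetes replicate 1 had 7020 CPM, above the immune-like level of that pool, and 1 well gave 65.5% of those reads. Levels are CPM of all gene reads summed over the wells of a class in a pool, and a class is given for pools with at least 5 of its wells. In immune-like wells Fth1 had 6569 and 5705 CPM in diabetes replicates 1 and 2 and 4610 CPM in control replicate 1. In mesangial-like wells it had 2938 and 3796 CPM in the diabetes pools and 1845 and 1851 CPM in the control pools. In endothelial-like wells it had 775 and 581 CPM in the diabetes pools and 637 and 613 CPM in the control pools. The ranges of these 3 classes did not overlap, though those of immune-like and mesangial-like wells did once the top well of each sum was left out. Immune-like wells held 8.47 and 9.81 times the endothelial-like level in the diabetes pools and 7.23 times in control replicate 1, and mesangial-like wells held 3.79 and 6.53 times in the diabetes pools and 2.89 and 3.02 times in the control pools.

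Of the sums of the remaining named classes, 1 tubular-like sum lay below the endothelial-like range and the others lay above the lowest endothelial-like sum and below the immune-like range. Smooth muscle or renin cell-like wells had 2359 and 1647 CPM of Fth1 in the control pools, a range that overlapped the mesangial-like one. Podocyte-like wells, the filtering epithelium, had 1342 CPM in diabetes replicate 2 and 962 and 937 CPM in the control pools. Tubular-like wells had 1133 CPM in diabetes replicate 1 and 553 and 1093 CPM in the control pools. Podocyte-like and tubular-like ranges overlapped, as did tubular-like and endothelial-like ranges, so these neighbours did not differ beyond the spread between pools. Podocyte-like wells stood above endothelial-like wells in all 3 pools that held enough of both. A few wells carried much of some sums: 1 of 5 wells gave 65.4% of the mesangial-like Fth1 reads in diabetes replicate 1, and 1 of 5 gave 64.9% of the immune-like reads in control replicate 1. Without the top well of each sum, immune-like wells had 6054 and 4455 CPM in the diabetes pools and 2778 CPM in control replicate 1. Mesangial-like wells then had 2053 and 3408 CPM in the diabetes pools and 1636 and 1777 CPM in the control pools, so the immune-like value of control replicate 1 lay inside the mesangial-like range. Within each of the 3 pools that held both, immune-like wells still stood above mesangial-like wells. In a sum over wells, fewer cells with Fth1 and less Fth1 RNA per cell cannot be told apart.

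**Figure D1:**
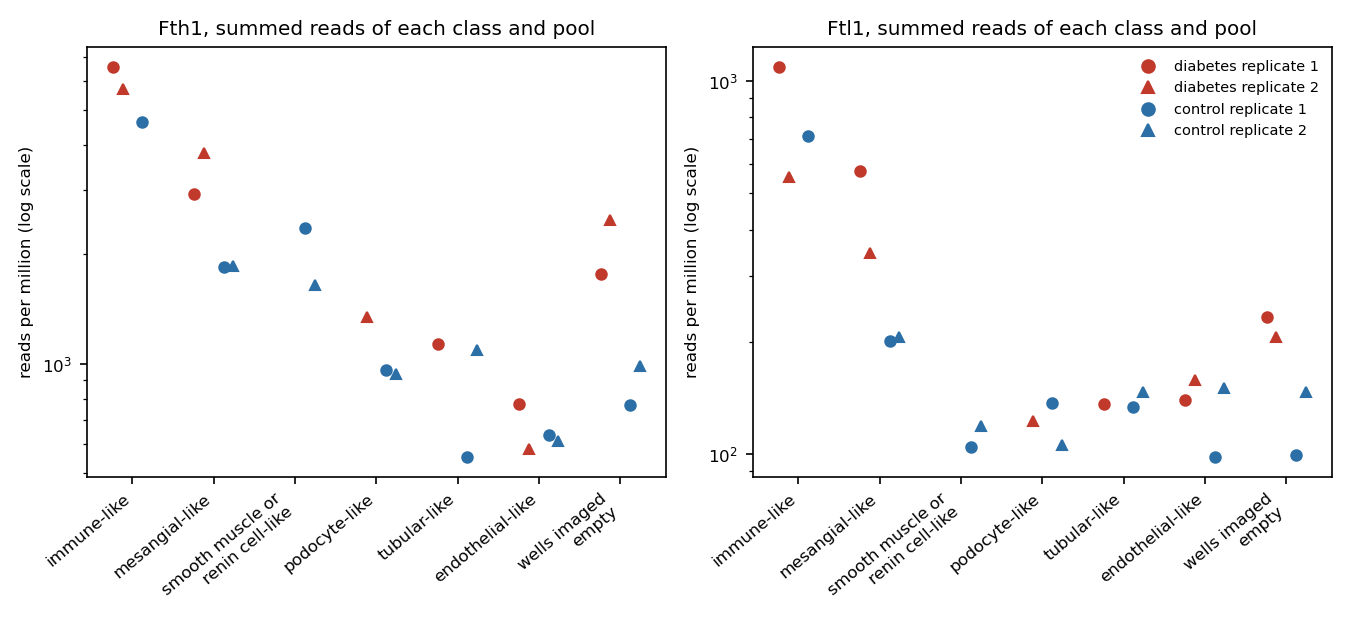
Fth1 (left) and Ftl1 (right) in CPM on a log axis, one point for each named class, or the wells imaged empty, and each pool with at least 5 wells, diabetes in red and control in blue, circles for replicate 1 and triangles for replicate 2. Of the classes plotted, immune-like wells are highest for Fth1 at 4610 to 6569, and the mesangial-like diabetes points (2938 and 3796) lie above the control points (1845 and 1851).

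Ftl1 (ENSMUSG00000050708.12, chr7:45457944-45459884, minus strand) followed the same order at its top and was nearly flat below it. Immune-like wells had 1095 and 555 CPM in the diabetes pools and 714 CPM in control replicate 1. Mesangial-like wells had 575 and 347 CPM in the diabetes pools and 201 and 206 CPM in the control pools. Endothelial-like wells had 140 and 158 CPM in the diabetes pools and 98.1 and 150 CPM in the control pools. The mesangial-like range stood above the endothelial-like range, and the immune-like range overlapped the mesangial-like one. In smooth muscle or renin cell-like, podocyte-like and tubular-like wells all values fell between 104 and 147 CPM, inside the endothelial-like range.

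The level of Ftl1 is uncertain because of copies. The table holds 7 further genes nearly identical to it, of which Ftl1-ps1 matches 99.6% of the coding sequence and took 10864 reads in the kept wells, against 21031 for Ftl1. Of the values above 0, 99.2% were not whole numbers for Ftl1, against 35.0% for Fth1, whose single near copy Gm6977 took 342 reads. The genes whose profile was most like that of Ftl1 over the 19 sums of class and pool, among 7307 genes searched, were Mir692-2 (Pearson r 0.977), Gm22774 (0.977) and Gm22751 (0.976). Of their 109 bases, 106, 105 and 105 match the Ftl1 transcript, and 95.9% to 96.1% of their values were not whole. For Fth1 the most alike were AB124611 (r 0.84), the actin gene Actb (0.83) and Gm22774 (0.83), as a description over sums that share libraries and depth.

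The balance of heavy to light chain reads varied between classes. Smooth muscle or renin cell-like wells had 22.6 and 13.8 Fth1 reads for each Ftl1 read in the control pools, the highest of the named classes. The ratio of 22.6 rested on 285 Fth1 and 12.6 Ftl1 reads, and 1 of 5 wells gave 71.2% of the Fth1 reads. In control replicate 2, 1 of 6 wells gave 60.2% of them. Immune-like wells had 6.00 and 10.3 in the diabetes pools and 6.45 in control replicate 1. Mesangial-like wells had 5.11 and 10.95 in the diabetes pools and 9.20 and 8.99 in the control pools. Endothelial-like wells had 5.55 and 3.67 in the diabetes pools and 6.50 and 4.08 in the control pools. These are ratios of reads, with no correction for transcript length, and the diabetes range held the control range in mesangial-like wells. With the reads of the copy Ftl1-ps1 alone added to Ftl1, endothelial-like wells had 3.19 and 2.53 in the diabetes pools and 3.74 and 2.79 in the control pools. Mesangial-like wells then had 3.20 and 7.45 in the diabetes pools and 5.24 and 5.90 in the control pools. Smooth muscle or renin cell-like wells then had 12.2 and 8.95 in the control pools.

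Hmox1 (ENSMUSG00000005413.7, chr8:75093621-75100589, plus strand) was rare, and most of its reads came from immune-like wells. Of all 358 reads in kept wells, diabetes replicate 2 held 283, and 87.9% of those lay in its immune-like wells. Immune-like wells had 20 reads in 7 of 27 wells (10.3 CPM) in diabetes replicate 1 and 249 reads in 11 of 36 wells (53.0 CPM) in diabetes replicate 2, where 1 well gave 79.6% of them. In control replicate 1 none of its 5 immune-like wells had a read, which allows up to 21.4 CPM (3 reads of that sum, counting error only). That limit lies above the level in diabetes replicate 1. Endothelial-like wells had 0 and 0.607 CPM in the diabetes pools and 0 and 0.0461 CPM in the control pools. For the sums at 0 the limits are 0.928 CPM in diabetes replicate 1 and 1.72 CPM in control replicate 1.

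Gpx1 (ENSMUSG00000063856.7, chr9:108338903-108340343, plus strand) was the other member with a clear immune-like excess. It had 2458 and 1390 CPM in immune-like wells of the diabetes pools and 1538 CPM in control replicate 1. In mesangial-like wells it had 378 and 483 CPM in the diabetes pools and 199 and 314 CPM in the control pools. In endothelial-like wells it had 365 and 242 CPM in the diabetes pools and 219 and 416 CPM in the control pools. Immune-like wells were thus 6.73 and 5.75 times endothelial-like wells in the diabetes pools and 7.02 times in control replicate 1, with no overlap, while mesangial-like and endothelial-like ranges overlapped. Under the finer clustering described below, the Lyz2-led immune-like cluster had 1639 to 2816 CPM of Gpx1 over the 4 pools. The Gm26870-led cluster had 748 and 149 CPM in the diabetes pools and 0 and 121 CPM in the control pools. Outside diabetes replicate 1 the excess was thus not found in the Gm26870-led cluster, which held 1 and 2 wells of the control pools. Tubular-like wells had 1142 CPM in diabetes replicate 1, where 1 of 11 wells gave 59.3% of the reads, and 568 and 468 CPM in the control pools.

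Prdx1 (ENSMUSG00000028691.10, chr4:116685544-116700822, plus strand) was found in every named class and separated none of the 3 main ones. It had 2620 and 789 CPM in immune-like wells of the diabetes pools and 988 CPM in control replicate 1. Mesangial-like wells had 1799 and 1417 CPM in the diabetes pools and 1733 and 739 CPM in the control pools. Endothelial-like wells had 1001 and 873 CPM in the diabetes pools and 1305 and 835 CPM in the control pools. In mesangial-like wells experiment 1 gave the higher level in both conditions. Its 3 near copies took 335 reads against 87839 for Prdx1.

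Sod1 (ENSMUSG00000022982.9, chr16:90220754-90226329, plus strand) ran the other way from ferritin. Endothelial-like wells had 702 and 444 CPM in the diabetes pools and 478 and 625 CPM in the control pools. Mesangial-like wells had 325 and 256 CPM in the diabetes pools and 293 and 307 CPM in the control pools. Immune-like wells had 248 and 226 CPM in the diabetes pools and 21.4 CPM in control replicate 1, where all 3 reads came from 1 well. Under the finer clustering described below, the Lyz2-led immune-like cluster had 22.8 to 240 CPM of Sod1 over the 4 pools. The Gm26870-led cluster had 556 and 263 CPM in the diabetes pools and 0 and 821 CPM in the control pools. Endothelial-like wells were above mesangial-like wells by 2.16 and 1.73 times in the diabetes pools and 1.63 and 2.03 times in the control pools, and the ranges did not overlap. One tubular-like sum, 828 CPM in control replicate 2, lay above all endothelial-like sums.

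Sod2 (ENSMUSG00000006818.4, chr17:13006846-13040063, plus strand), Cat (ENSMUSG00000027187.8, chr2:103453849-103485160, minus strand) and Txn1 (ENSMUSG00000028367.5, chr4:57943373-57956411, minus strand) did not separate the 3 main classes. Sod2 had 34.5 and 53.8 CPM in endothelial-like wells of the diabetes pools and 70.0 and 46.3 CPM in the control pools. In mesangial-like wells Sod2 had 204 and 73.6 CPM in the diabetes pools and 81.9 and 51.8 CPM in the control pools, and 1 of 5 wells gave every read of the 204 CPM. Immune-like wells had 55.5 and 180 CPM of Sod2 in the diabetes pools and 7.12 CPM, a single read, in control replicate 1. Cat had 75.5 and 30.4 CPM in endothelial-like wells of the diabetes pools and 29.4 and 26.0 CPM in the control pools. In mesangial-like wells Cat had 0 and 70.7 CPM in the diabetes pools and 90.2 and 13.6 CPM in the control pools. In immune-like wells Cat had 104 and 50.3 CPM in the diabetes pools and 35.6 CPM in control replicate 1. Txn1 ranged from 142 to 397 CPM in immune-like wells of the diabetes pools, with 135 CPM in control replicate 1, and from 171 to 369 CPM over the endothelial-like sums. In mesangial-like wells Txn1 had 408 and 223 CPM in the diabetes pools and 374 and 135 CPM in the control pools. As for Prdx1, experiment 1 gave its higher levels in both conditions.

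Nqo1 (ENSMUSG00000003849.8, chr8:107388225-107403206, minus strand) had no read in any of the 127 mesangial-like wells. The limits that a count of 0 allows there were 8.28 and 0.476 CPM in the diabetes pools and 2.76 and 0.199 CPM in the control pools. In endothelial-like wells it had 2.78 and 1.23 CPM in the diabetes pools and 16.1 and 1.48 CPM in the control pools, and 1 well gave 89.3% of the reads behind the 16.1 CPM. Per kilobase of exon, the mean level in endothelial-like wells was highest for Prdx1 at 330 CPM per kb. Txn1 followed at 244, Gpx1 at 215, Fth1 at 188, Sod1 at 142 and Ftl1 at 102. In immune-like wells Fth1 led at 1622 CPM per kb, followed by Gpx1 at 1246, Ftl1 at 588 and Prdx1 at 482. These lengths join the exons of all annotated transcripts, from 1051 bases for Txn1 to 3469 for Fth1 and 3970 for Sod1. They can exceed the length of the transcript in use, so the order of the genes on this scale is uncertain.

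**Figure D2:**
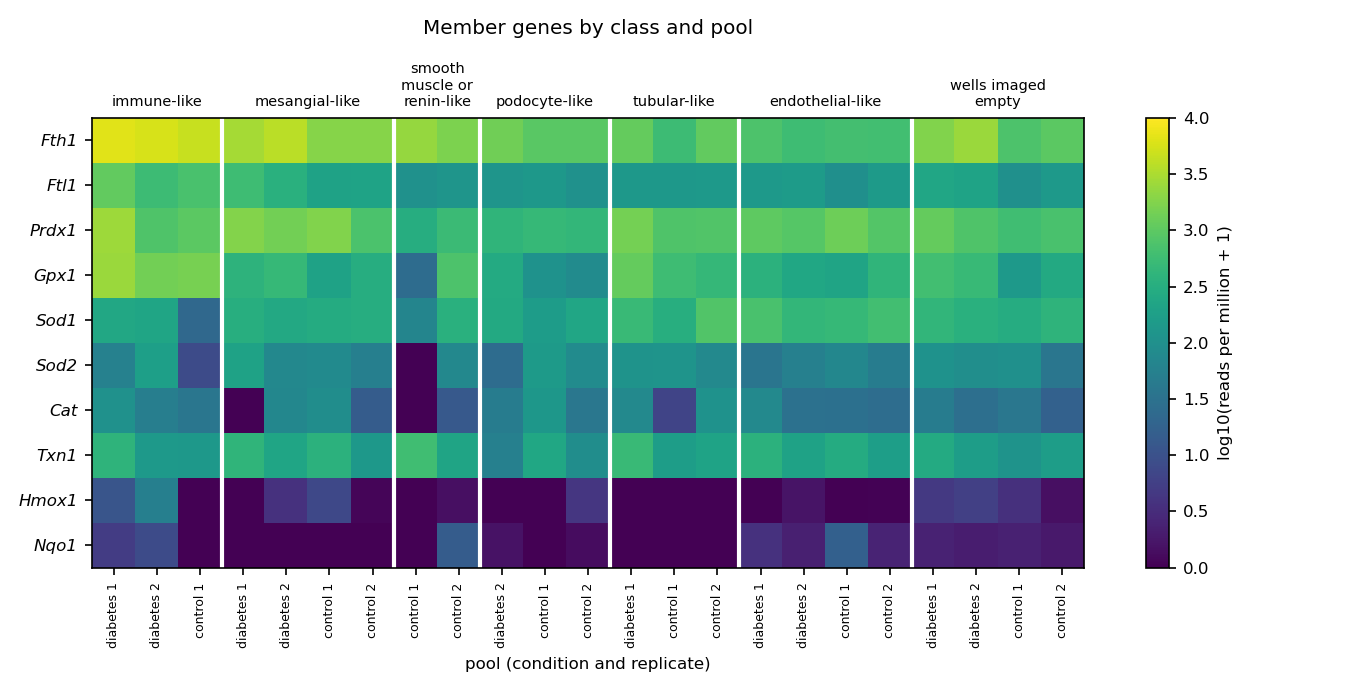
Heat map of log10(CPM + 1) for the 10 members (rows) in each named class, and in wells imaged empty, for pools with at least 5 wells (columns, grouped by class, diabetes pools left of control pools). The Fth1 and Gpx1 rows are brightest in the immune-like block, Sod1 is brighter in the endothelial-like block than in the mesangial-like one, and Hmox1 and Nqo1 are dark in most columns.

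These RNAs were also found in wells imaged as empty, which bears on every low level. Fth1 had 1764 and 2484 CPM in empty wells of the diabetes pools and 768 and 987 CPM in the control pools, above the endothelial-like level of the same pool in 4 of 4 pools. Sod1, by contrast, was higher in endothelial-like wells than in empty wells by 1.29 to 1.65 times in the 4 pools. A CPM level does not show how much RNA a well held. Relative to spike-in reads, counted in experiment 1 only, the median endothelial-like well had 2.02 Fth1 reads per 1000 spike-in reads in diabetes replicate 1 and 0.678 in control replicate 1. The median empty well had 0.202 in diabetes replicate 1 and 0.0797 in control replicate 1. On the same scale the median immune-like well had 42.1 in diabetes replicate 1 and 6.35 in control replicate 1, and the median mesangial-like well had 7.64 in diabetes replicate 1 and 5.62 in control replicate 1. When the mean profile of the empty wells of a pool was subtracted from each well, the mean endothelial-like Fth1 level over the 4 pools was 477.6 CPM, against 652 CPM without the subtraction.

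Single wells of a class varied far more than the pools did. The median mesangial-like well had 1003 and 2232 CPM of Fth1 in the diabetes pools and 1349 and 1073 CPM in the control pools. The higher sums in the diabetes pools were therefore matched by the median well in replicate 2 and not in replicate 1, where the median of the 5 wells lay below both control medians. The median immune-like well had 4739 and 1094 CPM in the diabetes pools and 1796 CPM in control replicate 1, so the well-by-well order of the immune-like pools was not that of the sums. The median endothelial-like well had 471 and 356 CPM in the diabetes pools and 243 and 412 CPM in the control pools. A read of Fth1 was found in 90.3% and 97.9% of endothelial-like wells of the diabetes pools and in 74.5% and 100% of those of the control pools. After each well was thinned to 10000 reads these shares were 82.1% and 84.5% in the diabetes pools and 62.5% and 83.7% in the control pools; thinning left out 14 wells of all classes in diabetes replicate 1 and 13 in control replicate 1.

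**Figure D3:**
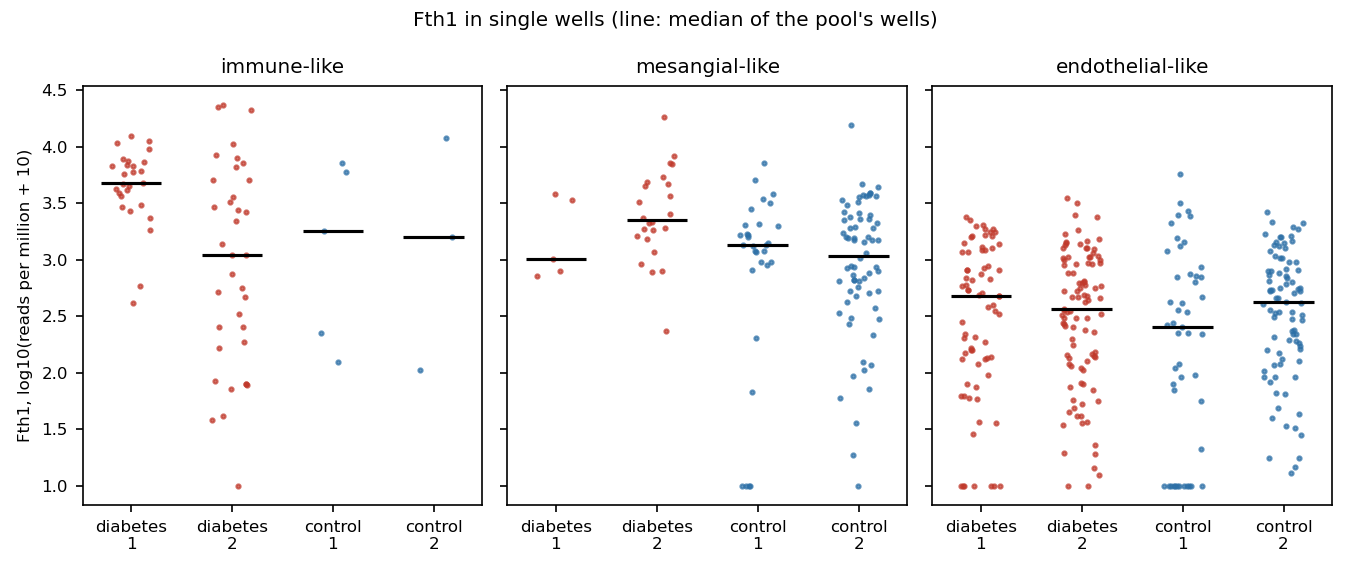
Fth1 in each single well as log10(CPM + 10), by pool, for immune-like, mesangial-like and endothelial-like wells, diabetes in red and control in blue, with a line at the median well. The mesangial-like median is highest in diabetes replicate 2 (2232 CPM), and the immune-like one is highest in diabetes replicate 1 (4739 CPM).

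Within immune-like wells Fth1 and Ftl1 moved together from well to well, with a Pearson r of log levels of 0.66 over 27 wells in diabetes replicate 1 and 0.73 over 36 wells in diabetes replicate 2. Fth1 and Gpx1 had an r of 0.64 and 0.69 in the same pools. In mesangial-like wells the r of Fth1 with Ftl1 was 0.03 over 24 wells in diabetes replicate 2 and 0.38 and 0.40 over 30 and 68 wells in the control pools. In endothelial-like wells it was 0.34 and -0.01 in the diabetes pools and 0.40 and 0.10 in the control pools. Wells of a pool share a library run and differ in depth, so these values describe the wells and carry no test. Under the finer clustering described below, immune-like wells of diabetes replicate 2 also joined 2 unlike clusters. Fth1 and Ftl1 had 8599 and 817 CPM in its Lyz2-led cluster and 414 and 138 CPM in its Gm26870-led cluster. The part of this mixture in the r values was not tested.

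The endothelial-like wells fell into 3 clusters, and the one led by Kdr had the lowest Fth1 level in 4 of 4 pools. The cluster led by Ly6c1 and Ly6a had 1054 and 608 CPM in the diabetes pools and 899 and 599 CPM in the control pools. The cluster led by Kdr, the main receptor of vascular endothelial growth factor, had 475 and 330 CPM in the diabetes pools and 385 and 357 CPM in the control pools. The Ly6c1-led cluster was above the Kdr-led cluster in 4 of 4 pools, with median depths of 191902 reads per well in the Ly6c1-led and 52638 in the Kdr-led cluster. The cluster led by Emcn had 537 and 606 CPM in the diabetes pools and 711 and 657 CPM in the control pools, a range that overlapped the Ly6c1-led one. The conditions lay differently over these clusters. The Ly6c1-led cluster held 30 of 72 and 66 of 97 endothelial-like wells in the diabetes pools and 11 of 47 and 26 of 86 in the control pools. The Emcn-led cluster held 15 and 19 wells in the diabetes pools and 16 and 48 in the control pools, and the Kdr-led cluster 27 and 12 in the diabetes pools and 20 and 12 in the control pools. Clusters drawn from these cells are not independent of their expression, so no test is given.

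Immune-like wells were a larger share of the kept wells in the diabetes pools than in the control pools. They made up 21.1% and 19.1% of the kept wells in the diabetes pools and 4.17% and 1.48% in the control pools. The share in diabetes replicate 2 depends on wells rich in mitochondrial reads. With at most 15% such reads, its immune-like wells fell from 36 to 10 and its endothelial-like wells from 97 to 71. In diabetes replicate 1 immune-like wells fell from 27 to 24, and in the control pools from 5 to 4 and from 3 to 2. Immune-like wells held 60.4% and 39.3% of all Fth1 reads in the diabetes pools and 11.8% and 5.90% in the control pools. The same wells held 28.8% and 12.4% of all gene reads in the diabetes pools and 2.95% and 1.24% in the control pools. Over all kept wells Fth1 had 3136 and 1797 CPM in the diabetes pools and 1148 and 1158 CPM in the control pools. Without the immune-like wells it had 1745 and 1245 CPM in the diabetes pools and 1043 and 1104 CPM in the control pools. Both diabetes pools stood above both control pools either way, and the gap was smaller without the immune-like wells. The unnamed cluster is part of both sets of values. In diabetes replicate 1 its 9 wells held 4009 Fth1 reads (7020 CPM), 65.5% of them from 1 well. Without the immune-like wells, the place of that pool above the control pools rested on the unnamed cluster.

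**Figure D4:**
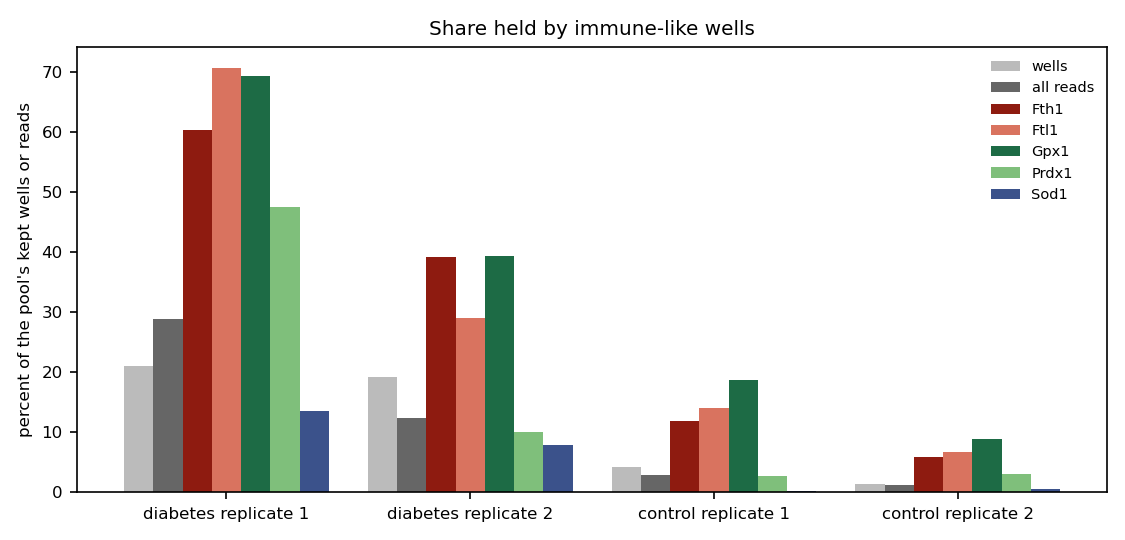
Bars give the percent of each pool's kept wells, of all its gene reads, and of its Fth1, Ftl1, Gpx1, Prdx1 and Sod1 reads that lay in immune-like wells, diabetes pools left of control pools. In each of the 4 pools the Fth1, Ftl1 and Gpx1 bars exceed the bar for all reads, and the Sod1 bar lies below it.

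The design asks whether each cell class differs between diabetes and control. Sums of a class were compared over the 4 pools with edgeR's quasi-likelihood test with Benjamini-Hochberg adjustment over all genes, with the experiment as a block; levels below are CPM after TMM scaling. The p-values rest on pools of 3 mice, with 2 pools a condition. In endothelial-like sums edgeR joined a gene's own spread between pools with a trend fitted over all genes. In mesangial-like and immune-like sums it took the spread of a typical gene wholly from that trend. No member passed an adjusted p of 0.05 in any class by edgeR or by DESeq2. By edgeR 1 member in 1 class, Fth1 in mesangial-like wells, had an unadjusted p under 0.05, against 0 by DESeq2. Of all genes tested by edgeR in mesangial-like wells, 270 of 10460 had an unadjusted p under 0.05. With 2 pools a condition, a missed threshold does not show that a level was the same in both conditions.

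In mesangial-like wells 8 members could be tested, and Hmox1 and Nqo1 fell below the filter on low counts. Fth1 had 2701 and 4208 CPM in the diabetes pools against 1819 and 1922 CPM in the control pools, with a fitted log2 fold change of 0.85 ± 0.35 (SE, unadjusted p = 0.0145, adjusted p = 0.99994 by edgeR). Ftl1 had 527.5 and 384 CPM in the diabetes pools against 198 and 214 CPM in the control pools, with a fitted log2 fold change of 1.13 ± 0.64 (SE, adjusted p = 0.99994 by edgeR). Both diabetes pools lay above both control pools for 4 of the 8 members, against 10.4% of all genes tested. These were Fth1, Ftl1, Gpx1 and Sod2. Both diabetes pools lay below both control pools for none, against 21.9% of all genes. The order of Sod2 was close, with 81.7 CPM in diabetes replicate 2 against 80.8 CPM in control replicate 1. Without TMM scaling its conditions overlapped, and every Sod2 read of diabetes replicate 1 came from the same well, as given above. The members' median log2 fold change was 0.63 against -0.45 for all genes tested. The sum of diabetes replicate 1 rested on 5 wells and 362432 reads. The part of depth and of gene level in this contrast was not tested. Of all genes, 0.124% (13 of 10460) passed the adjusted threshold. For Fth1 the fold change was above 0 in all 13 alternative settings run, with a range of 0.54 to 1.19; the lowest value came without diabetes replicate 2.

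Other values moved with condition in mesangial-like wells. The 8 fibroblast markers summed to 5056 and 1522 CPM in the diabetes pools and 431 and 618 CPM in the control pools; 6 and 6 of the 8 were detected in the diabetes pools and 5 and 7 in the control pools, with Lum at 0 in all 4. The 16 immune markers summed to 209 and 68.1 CPM in the diabetes pools and 267 and 73.7 CPM in the control pools, so they did not separate the conditions, and 11 to 16 of them were detected. Xist had 0 and 0.476 CPM in the diabetes pools and 234 and 388 CPM in the control pools, and the Y-linked genes 139 and 181 CPM in the diabetes pools and 0.433 and 0.207 CPM in the control pools. Well numbers were 5 and 24 in the diabetes pools and 30 and 68 in the control pools. The part of the fibroblast markers in the Fth1 and Ftl1 values was not tested.

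In endothelial-like wells 9 members were tested, with fitted log2 fold changes from -1.32 (Nqo1) to 0.84 (Cat). Fth1 had 725 and 651 CPM in the diabetes pools against 590 and 641 CPM in the control pools, with a fitted log2 fold change of 0.16 ± 0.26 (SE, adjusted p = 1.0 by edgeR). Cat had 70.6 and 34.1 CPM in the diabetes pools against 27.1 and 27.2 CPM in the control pools, with a fitted log2 fold change of 0.84 ± 0.74 (SE, adjusted p = 1.0 by edgeR). Fth1 and Cat were the 2 of 9 members with both diabetes pools above both control pools, against 16.5% of all genes tested. None had both below, against 13.5%. The Fth1 order depended on TMM scaling, after which the nearest pools had 651 and 641 CPM. Without it Fth1 overlapped, with 775 and 581 CPM in the diabetes pools and 637 and 613 CPM in the control pools. For Fth1 that order was not found within the Emcn-led cluster, where both diabetes pools lay below both control pools, and in the Ly6c1-led and Kdr-led clusters the conditions overlapped; the part of the unequal cluster shares in the Fth1 value was not tested. Txn1 had a log2 fold change of 0.36 (SE 0.32), Ftl1 0.35 (SE 0.39), Sod1 0.09 (SE 0.33), Gpx1 0.03 (SE 0.42), Prdx1 -0.10 (SE 0.26) and Sod2 -0.33 (SE 0.66). The median over members was 0.09 and over all genes 0.06, and 0.0234% of all genes (3 of 12796) passed the adjusted threshold. Fth1 turned to -1.32 when the mean profile of the empty wells was subtracted and to -0.02 when each well had equal weight.

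Beside these values, the 16 immune markers summed to 566 and 423 CPM in endothelial-like wells of the diabetes pools and 117 and 152 CPM in the control pools, with 16 and 15 of them detected in the diabetes pools and 9 and 15 in the control pools, and Adgre1 at 0 in 3 of 4 pools. The 6 red cell genes summed to 13393 and 451 CPM in the diabetes pools and 0 and 23.9 CPM in the control pools. Their part in the endothelial-like fold changes was not tested. Xist and the Y-linked genes differed as given above.

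Immune-like wells numbered 3 in control replicate 2 under the clustering used so far, which is too few for the comparison. A finer clustering gave 27 and 40 wells in the diabetes pools and 5 and 5 in the control pools, and the values that follow are from it. That class joined 2 unlike clusters. The cluster led by Lyz2, Fcer1g and Tyrobp, genes of myeloid cells, held 23 and 15 wells of the diabetes pools and 4 and 3 of the control pools, and 8 of its 10 leading genes were immune markers. The other, led by Gm26870 and the immunoglobulin genes Igha and Igkc, held 4 and 25 wells of the diabetes pools and 1 and 2 of the control pools; 1 of its 10 leading genes was an immune marker, and its median well had 19.3% mitochondrial reads, against 11.7% in the Lyz2-led cluster. Most immune-like wells of diabetes replicate 2 thus lay in a different cluster from most of those of the other pools. In the Lyz2-led cluster Fth1 had 6669 and 8599 CPM of all gene reads in the diabetes pools and 4907 and 5492 CPM in the control pools. In the Gm26870-led cluster it had 2965 and 414 CPM in the diabetes pools and 115 and 162 CPM in the control pools, the control values resting on 1 and 58 reads. With both clusters joined and TMM scaling, Fth1 had 6327 and 5794 CPM in the diabetes pools against 3693 and 4429 CPM in the control pools, with a fitted log2 fold change of 0.58 ± 0.53 (SE, adjusted p = 0.999804 by edgeR). Hmox1 had 9.94 and 53.6 CPM in the diabetes pools against 0 and 6.58 CPM in the control pools (adjusted p = 0.999804 by edgeR), and its fitted fold change depends on the prior count because of the sum at 0. Cat had 100 and 50.8 CPM in the diabetes pools against 28.5 and 14.5 CPM in the control pools. Ftl1 had 1054 and 616 CPM in the diabetes pools against 570 and 764 CPM in the control pools, which overlap. Both diabetes pools were above both control pools for 3 of 9 members, Fth1, Cat and Hmox1, close to the 33.1% of all genes tested, and below for none, against 6.85%. Hmox1 passed the filter on low counts through the diabetes pools only, so its order was largely set by that filter. The members' median log2 fold change was 0.70 against 0.99 for all genes, and 0.0485% of all genes (4 of 8251) passed the adjusted threshold. In the coarser clusters the 16 immune markers summed to 70424 and 15520 CPM in the diabetes pools and 64330 and 23447 CPM in the control pools. Xist had 2.06 and 1.49 CPM in the diabetes pools and 71.2 and 228 CPM in the control pools, and the Y-linked genes 130 and 191 CPM in the diabetes pools and 0 and 0 CPM in the control pools. Red cell genes there summed to 2.58 and 25937 CPM in the diabetes pools and 0 and 0 CPM in the control pools; their part in the Hmox1 value of diabetes replicate 2 was not tested.

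**Figure D5:**
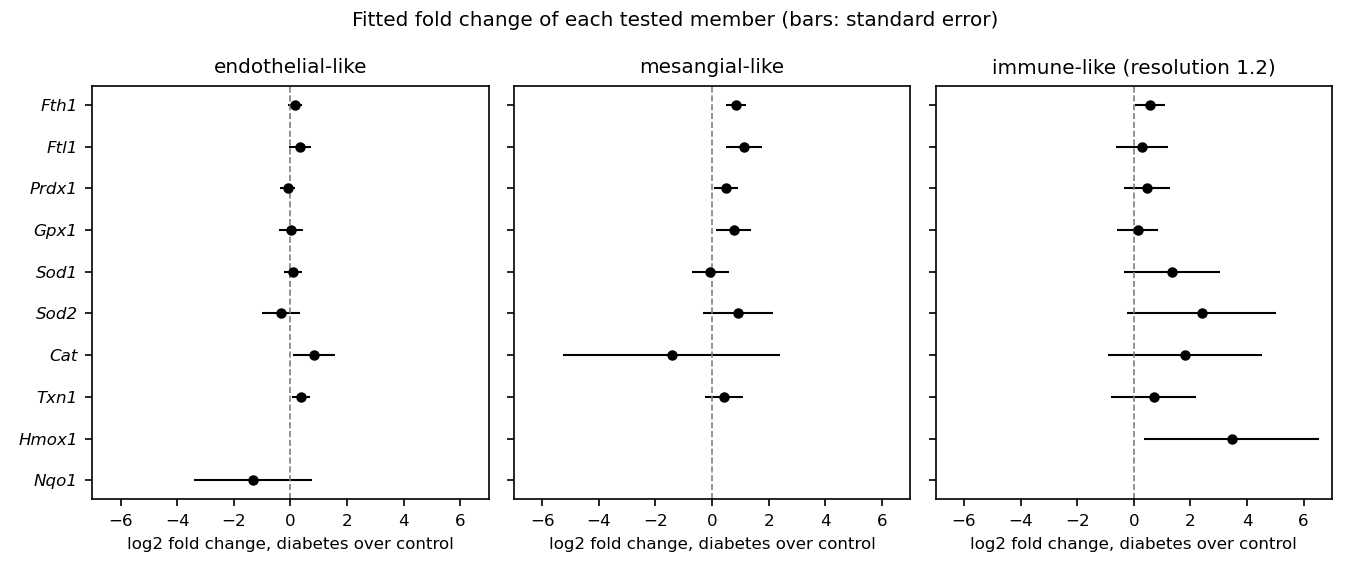
Fitted log2 fold change, diabetes over control, of each tested member in endothelial-like, mesangial-like and immune-like wells, with bars of 1 standard error and a dashed line at 0. Mesangial-like Fth1 (0.85) and Ftl1 (1.13) lie right of the line, all endothelial-like members other than Cat (0.84) and Nqo1 (-1.32) lie no further from it than Txn1 (0.36), and the bars are widest for members with few reads.

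Whether the diabetes effect on a member differed between mesangial-like and endothelial-like wells was tested directly as an interaction over the same pools. For Fth1 the log2 fold change in mesangial-like wells exceeded that in endothelial-like wells by 0.61 (SE 0.53, unadjusted p = 0.257, adjusted p = 1 by edgeR). For Ftl1 the difference was 0.70 (SE 0.89) and for Sod1 it was -0.22 (SE 0.73). No member passed, against 0.0307% of all genes (4 of 13048), so the diabetes effects on ferritin in the 2 classes are not shown to differ.

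The wider pathway was read from 5 further lists of 71 genes: iron and haem handling (22), the glutathione system (17), thioredoxins, peroxiredoxins and superoxide dismutases (13), NRF2 control (10) and NADPH oxidases (9). None of these genes passed the adjusted threshold in any of the 3 classes by edgeR. At an unadjusted p under 0.05 there were 4 in endothelial-like, 0 in mesangial-like and 3 in immune-like wells by edgeR. DESeq2 gave 6, 1 and 4 and also called none after adjustment. The genes of these lists that were tested numbered 62, 58 and 54. Over all genes tested by edgeR the counts were 514 of 12796, 270 of 10460 and 202 of 8251. No such counts over all genes are at hand for DESeq2, so its 6, 1 and 4 have no share to be set against. Of the genes counted by edgeR, Slc40a1 in endothelial-like wells and Glrx and Txnrd2 in immune-like wells passed the filter on low counts through the diabetes pools only. In endothelial-like wells the smallest p among iron genes was that of Slc25a37, the mitochondrial iron importer, at 52.4 and 75.8 CPM in the diabetes pools against 2.66 and 19.8 CPM in the control pools (unadjusted p = 0.0185, adjusted p = 1 by edgeR). The iron exporter Slc40a1 had 0.868 and 1.02 CPM in the diabetes pools and 0 and 0 CPM in the control pools. The peroxidase Gpx7 had 16.5 and 78.4 CPM in the diabetes pools and 1.59 and 22.6 CPM in the control pools, and Cyba, a membrane subunit of NADPH oxidases, 81.3 and 140 CPM in the diabetes pools and 18.1 and 82.6 CPM in the control pools.

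For the rest of the endothelial-like lists, the glutathione transferase Mgst1 had a log2 fold change of 4.56, the mitochondrial peroxiredoxin Prdx3 of -1.32, Prdx2 of -0.54, the small Maf protein gene Mafk of 3.05, the transcription factor gene Nfe2l1 of 0.49 and the oxidase subunit Ncf4 of 4.33, each with adjusted p = 1 by edgeR. The median log2 fold change of the endothelial-like lists was -0.04 for iron and haem handling, -0.05 for the glutathione system, 0.25 for the thioredoxin list, 0.15 for NRF2 control and 2.84 for the 5 NADPH oxidase genes tested, against 0.06 for all genes. Of these 5 genes, 1 had both diabetes pools above both control pools. For Ncf4, with 5.21 and 9.23 CPM in the diabetes pools and 0 and 0.869 CPM in the control pools, the fitted value depends on the prior count. The summed immune markers of these wells, given above, were also higher in the diabetes pools, and their part in the NADPH oxidase median was not tested.

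In mesangial-like wells the smallest p of each list other than the NADPH oxidases belonged to Hfe (log2 fold change -3.93), Gsta4 (-1.61), Prdx4 (1.62) and Sqstm1 (0.85), and the next to Slc25a37 (-3.59), Gpx8 (-1.28), Prdx5 (-0.89) and Cul3 (-2.72), none with an unadjusted p under 0.05 by edgeR. For Hfe, Slc25a37 and Cul3 diabetes replicate 1 had no read, so the fitted value depends on the prior count. Sqstm1, which encodes the autophagy receptor p62 and is a known NRF2 target, had 386 and 738 CPM in the diabetes pools and 289 and 303 CPM in the control pools (adjusted p = 0.99994 by edgeR). Slc25a37 had 0 and 9.50 CPM in the diabetes pools and 15.4 and 56.5 CPM in the control pools, the opposite order to that in endothelial-like wells. Its diabetes effect in mesangial-like wells minus that in endothelial-like wells was -6.25 on the log2 scale (SE 2.72, unadjusted p = 0.0289, adjusted p = 1 by edgeR), so the effects in these classes are not shown to differ. Median log2 fold changes were 0.05, 0.18, 0.17, -0.69 and 0.18 for the 5 lists in the order given, against -0.45 for all genes.

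In immune-like wells the genes with the smallest p were Trf and Slc48a1, Glrx and Mgst1, Txnrd2 and Prdx5, and Mafg and Bach1 in the first 4 lists. Prdx5 had 240 and 930 CPM in the diabetes pools and 34.2 and 197 CPM in the control pools (unadjusted p = 0.0480, adjusted p = 0.999804 by edgeR). Glrx, Mgst1 and Txnrd2 had no read in either control pool, where 5 wells each were summed. Transferrin (Trf) had 379 and 76.4 CPM in the diabetes pools and 239 and 0 CPM in the control pools. Slc48a1, a haem transporter, had 68.6 and 82.2 CPM in the diabetes pools and 5.70 and 9.22 CPM in the control pools. Bach1, a haem-sensing repressor of Hmox1, had 70.1 and 146 CPM in the diabetes pools and 39.9 and 6.58 CPM in the control pools, while its partner Mafg had 42.7 and 64.5 CPM in the diabetes pools and 11.4 and 0 CPM in the control pools. Cyba had 738 and 401 CPM in the diabetes pools and 365 and 232 CPM in the control pools. Median log2 fold changes were 2.32, 0.63, 1.71, 2.18 and 0.60 for the 5 lists in the same order, against 0.99 for all genes.

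Profiles most like those of the other members were sought over the same 19 sums of class and pool, among genes with a mean of at least 20 CPM. Sod1 was closest to Ppp1r2 (r 0.91), Eif4h (0.90) and Phc2 (0.89), Gpx1 to Plekho2 (0.86), Eno1b (0.84) and the ribosomal gene Rpsa (0.80), and Prdx1 to Wipf1 (0.83), Brms1l (0.78) and cofilin 1 (Cfl1, 0.76). Cat was closest to Sh3gl1 (0.92), Ube2q1 (0.91) and Atp6v1d (0.85), Txn1 to Btf3 (0.90), Hnrnpu (0.85) and Rps27l (0.83), and Sod2 to Thoc7 (0.89), Mcts1 (0.89) and Immt (0.89). Hmox1 was closest to Clec4d (0.81), Bcl2a1a (0.80) and Dock2 (0.77), and Nqo1, which was at 0 in most sums, to Plcg2 (0.78), Coasy (0.76) and Irak4 (0.70). These r values describe sums that share libraries and differ in depth.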

How the data were processed

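The deposited gene tables hold expected counts, in which a read can be split between genes; 74.1% and 79.3% of values above 0 were whole in experiments 1 and 2. The deposited spike-in table holds counts for 95 sequences, experiment 1 only. The submitters' processing notes name featureCounts 1.5.1, BWA 0.7.17-r1188, STAR 2.4.2a and cutadapt 1.11 and the build mm10. Not given in the sources used here: their roles, the annotation, the use of strand and the handling of shared reads. Overlapping genes and near copies are therefore uncertain. Reads carry no molecular identifiers, so limits from 0 counts cover counting error only. GENCODE M21 named 45229 of 45792 identifiers.

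Wells with 1 cell imaged, at least 500 genes and at most 30% mitochondrial reads were kept; imaging replaced a doublet caller. The 2000 most variable genes without the 81 listed ones, 15 components, 15 neighbours and Leiden resolution 0.8 gave the clusters (scanpy 1.11.5, Python 3.11.15). A cluster took a type's name when that type led among its 50 leading genes and had at least 1 of the top 10. It also needed at least 3 markers in 25% of wells and at most 1 marker of any other type in the top 10. The last condition left the cluster of 41 wells unnamed. These limits were set with the data at hand. With the listed genes allowed, 571 of 639 wells kept their class.

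Sums of a class in a pool (at least 5 wells each) were rounded and tested with edgeR 4.0.16 in R 4.3.3 (TMM, filterByExpr, robust quasi-likelihood, experiment as block, Benjamini-Hochberg, 0.05), with DESeq2 1.42.0 as an alternative. The numbers pair pools of 1 array, per the labels; deviations of same-numbered pools correlated at 0.138, 0.101 and 0.131 in endothelial-like, mesangial-like and immune-like sums. Prior degrees of freedom were 5.50 in endothelial-like sums and infinite in the other fits, which took the spread of a typical gene wholly from the fitted trend. An exact two-sided permutation test of 2 pools against 2 cannot give a p under 0.333. The immune-like comparison uses resolution 1.2, chosen after seeing that resolution 0.8 left control replicate 2 short of wells. The edgeR fits of endothelial-like and mesangial-like sums were tested on simulated data.

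The members and lists were chosen with earlier results of these data known. All 10 members are named; of each other list the genes past the threshold or, with none, the 2 with the smallest p; and the 3 genes most like each member. A gene of the other lists is not reported here. Motifs and sequences came from GENCODE M21 and RefSeq GRCm38.p6.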

Additional observations from a re-analysis of the deposited data

Results flagged for a closer look

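Wells imaged as empty and wells with 2 cells entered no comparison, and in some both diabetes pools lay above both control pools. In empty wells Fth1 had 1764 and 2484 CPM in the diabetes pools and 768 and 987 CPM in the control pools. Ftl1 had 233 and 205 CPM in the diabetes pools and 99.2 and 146 CPM in the control pools. Prdx1 had 1135 and 802 CPM in the diabetes pools and 587 and 698 CPM in the control pools. Gpx1 had 606 and 497 CPM in the diabetes pools and 138 and 272 CPM in the control pools. Txn1 had 280 and 170 CPM in the diabetes pools and 112 and 169 CPM in the control pools, so that its nearest pools differed by little. In wells with 2 cells Prdx1 had 1463 and 1004 CPM in the diabetes pools and 913 and 822 CPM in the control pools, and Sod1 had 384 and 641 CPM in the diabetes pools and 322 and 354 CPM in the control pools. None of these differences was tested.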

How the results depend on the processing

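No member was called under any alternative run; the smallest unadjusted p of a member in any setting was 0.194 in endothelial-like, 0.00408 in mesangial-like and 0.00549 in immune-like wells. Of 300 recomputed member fold changes 264 kept their sign and 36 reversed; the cause was not tested. The number of the 10 members highest in immune-like of the 3 main classes was 6, and 5 to 9 under the alternatives. With no replicate block, calls over all genes were 1 in endothelial-like (3 with the block), 1 in mesangial-like (13) and 0 in immune-like wells (4), endothelial-like Gpx1 turned to -0.0622 and immune-like Sod1 to -0.013; the block changed no member's call.

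In endothelial-like wells calls over all genes were 90 by DESeq2, 6 with no filter, 10 with thinned wells, 1 at resolution 1.2, 5 with fractions dropped, and 0 with the listed genes in the clustering, with the empty-well profile subtracted or with equal weight per well; they ranged from 11 to 30 without 1 replicate. In mesangial-like wells they were 25 by DESeq2 and 4 with the empty-well profile subtracted, and ranged from 1 (without control replicate 1) to 183 (without diabetes replicate 2). In immune-like wells they ranged from 0 (without diabetes replicate 2) to 459 (without control replicate 1). DESeq2 scaling moved the immune-like median of all genes by -0.26.

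Reversed endothelial-like log2 fold changes were, with the empty-well profile subtracted, Fth1 -1.32 and Gpx1 -0.30; with equal weight per well, Fth1 -0.0247, Prdx1 0.0188, Gpx1 -0.15, Sod1 -0.0539 and Txn1 -0.0082; and Gpx1 -0.0657 with thinned wells and -0.0145 at 15% mitochondrial reads. Without 1 replicate they ranged from -0.0296 to 0.765 for Ftl1, -0.33 to 0.13 for Prdx1, -0.51 to 0.59 for Gpx1, -0.19 to 0.39 for Sod1, -0.80 to 0.10 for Sod2 and -2.91 to 0.34 for Nqo1. Mesangial-like Sod1 was 0.0222 with RLE scaling, 0.0223 by DESeq2 and 0.0843 with equal weight, and without 1 replicate values ranged from -0.13 to 0.0763 for Sod1, -0.0227 to 1.07 for Prdx1, -0.18 to 1.15 for Txn1 and -11.09 to 1.49 for Cat, which is at 0 in a pool. Immune-like Gpx1 was -0.13 by DESeq2 and -0.0291 with the listed genes in the clustering, and without 1 replicate values ranged from -0.28 to 0.70 for Gpx1, -0.0913 to 0.653 for Ftl1, -0.33 to 1.18 for Prdx1 and -0.92 to 4.07 for Sod1.

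Fewer than 5 wells in a pool kept thinned wells and the 15% limit from being fitted in mesangial-like and immune-like wells, and immune-like wells from being fitted at resolution 0.8. At resolution 1.2 the immune-like fit was not run with RLE scaling, no filter, dropped fractions, subtraction or equal weight.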
